A study of Mus musculus with 10 samples.

Results

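The comparison set all MC38 tumors that received YH29407, an IDO1 inhibitor, against all that did not, and so asked which transcripts moved with the drug whether or not PD-1 was blocked. It held all 10 RNA-seq libraries of the series. Of these, 6 came from tumors with YH29407 (YH29407 replicates 1, 3 and 4, and YH29407+aPD-1 combination replicates 2, 3 and 4) and 4 from tumors without it (aPD-1 replicates 3 and 4, and control replicates 3 and 5). The members were chosen by the treatment label alone, and no expression value was used. All tumors were grown from MC38, a mouse colon carcinoma line labelled MC-38, under the skin of the right flank of wild-type female C57BL/6 mice that were 6 weeks old when bought. YH29407 was given by mouth and aPD-1, an antibody that blocks the checkpoint receptor PD-1, by injection. Control tumors are labelled as having no treatment, while the paper states that the control group of its combination experiment received vehicle. All tissue was fixed in formalin and embedded in paraffin before RNA was extracted, so that every group shares this step. The labels do not say whether the replicates of a group came from separate animals, so the p-values measure the spread between these libraries.

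IDO1 is the enzyme that opens the ring of tryptophan and starts the kynurenine pathway. It is induced by interferon gamma, and in tumors it is known for depleting tryptophan, which T cells need, and for making kynurenine, a ligand of the aryl hydrocarbon receptor. Shortage of tryptophan is also sensed by the kinase GCN2, which acts through the transcription factor ATF4. An inhibitor acts on the enzyme and not on its transcript, and an antibody against PD-1 acts on the protein, so Ido1 and Pdcd1 mRNA are no check of the labels.

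Library totals ranged from 56170804 to 76287659 counts, and 21523 of 45777 genes passed the filter on low counts. Combination replicate 4 stood apart. Its share of mitochondrial mRNA was 2.28% (other libraries 0.413% to 0.560%) and its share of pseudogene counts 7.09% (other libraries 3.04% to 3.70%). Combination replicates 2 and 3 held keratinocyte genes: the keratin Krt14 was at 186 and 67.7 CPM in them and at no more than 0.342 CPM elsewhere. CPM are counts scaled to a common library size after TMM normalization. For genes at a mean log2 CPM above 1, each library's deviation from the mean of the 10 libraries was correlated with the GC content of the transcripts. This correlation averaged 0.0384 with YH29407 and -0.275 without (exact permutation test within strata of aPD-1, 2-sided p = 0.08). It ranged from -0.258 to 0.61 with YH29407 and from -0.372 to -0.13 without. The highest values were those of combination replicates 4 (0.61) and 2 (0.237). Of 18 markers of colon epithelium, 12 passed the filter. The epithelial adhesion gene Epcam was at 0.0722 to 1.59 CPM with YH29407 and at 0.0998 to 0.261 CPM without, and the intestinal regulators Cdx1 and Cdx2 failed the filter. The sample titles carry one prefix in the tumors with YH29407 and another in those without. Whether the 2 sets were handled apart is not given in the sources used here, and such a difference cannot be told apart from the treatment.

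No gene was called for YH29407. edgeR's quasi-likelihood test with aPD-1 as a covariate found 0 of 21523 genes (0%) at an adjusted p under 0.05 (Benjamini-Hochberg). The smallest adjusted p was 0.540, shared by Hectd2 and Pfn2. At an unadjusted p under 0.05, 973 genes (4.52%) had higher and 373 (1.73%) had lower values with YH29407, together 6.25% of the genes. Without combination replicate 4 there were 1152 higher and 784 lower genes by this measure, and without combination replicates 2 and 3 there were 1956 and 1595. The median log2 fold change over all genes was 0.06, and 55.1% of the genes had a positive one. In 212 genes (0.985%) every library with YH29407 lay above every library without, and in 285 (1.32%) every one lay below. Limma-voom also called 0 genes, with 854 and 533 genes past an unadjusted p of 0.05 on the higher and lower side, whereas DESeq2 called 133 higher and 31 lower. Genes are described below by their values, since none passed the adjusted threshold with edgeR, and "higher" and "lower" refer to the libraries with YH29407.

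**Figure D1:**
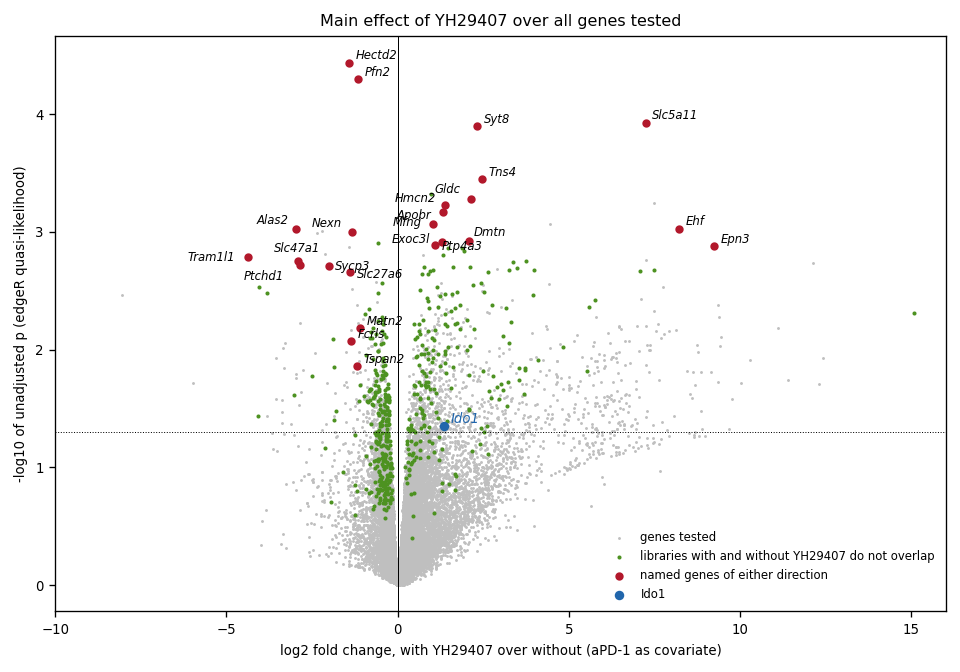
Log2 fold change with YH29407 over without (horizontal axis, aPD-1 as covariate) against -log10 of the unadjusted p of edgeR's quasi-likelihood test (vertical axis) for 21523 genes. Green points are genes whose 6 libraries with YH29407 do not overlap the 4 without, red points are the named genes of both directions, the blue point is Ido1, and the dotted line marks the unadjusted threshold; more genes lie above the line on the right (973) than on the left (373).

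Transcripts of the enzymes that make and use kynurenine mostly had higher values with YH29407. Of the 14 genes on this list 12 were tested, 10 had a positive log2 fold change, 2 (Ido1 and Afmid) were higher at an unadjusted p under 0.05 and none was lower. The list's median log2 fold change was 0.70, against 0.06 over all genes. It was 0.44 between YH29407 and control, 0.43 between the combination and aPD-1 and 0.49 without combination replicates 2 and 3. No member was separated between the tumors with and without YH29407. Leaving out YH29407 replicate 1, aPD-1 replicate 3 or either control library left 0 members past that p, and the median stayed between 0.54 and 0.81 over all leave-one-out fits. Tdo2, the liver enzyme that also opens tryptophan, and Acmsd, which diverts the pathway from NAD, had at most 5 and 21 counts in a library and were not tested.

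Ido1 (chr8:24584133-24596952, mm10) itself, the target of YH29407, had 7.49, 1.78 and 5.82 CPM in YH29407 replicates 1, 3 and 4 and 1.17, 0.814 and 0.755 CPM in combination replicates 2, 3 and 4, against 0.425 and 0.905 CPM with aPD-1 and 0.540 and 1.43 CPM in the control group. The 3 tumors given YH29407 alone had the highest values of the series, while the combination tumors lay within the range of the tumors without the drug. The log2 fold change was 1.36 (SE 0.59, unadjusted p = 0.0445, adjusted p = 0.748). The permutation test within strata of aPD-1 gave an exact 2-sided p of 0.09. Leaving out 1 library at a time gave log2 fold changes of 0.91 to 1.86, with an unadjusted p under 0.05 in 4 of 10 fits. Ido2, the neighboring paralog of weaker activity, was likewise highest in YH29407 replicates 1 and 4. It had 6.39, 1.26 and 11.2 CPM with YH29407 alone and 0.571, 0.393 and 0.863 CPM with the combination, against 0.708 and 1.32 CPM with aPD-1 and 0.568 and 0.784 CPM in the control group. Its log2 fold change was 3.21 between YH29407 and control and -0.74 between the combination and aPD-1 (interaction, unadjusted p = 0.00751, adjusted p = 0.763), so that the main effect of 0.97 described neither pair.

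Afmid, the formamidase that releases kynurenine, was the other member past an unadjusted p of 0.05. It had 20.3, 11.1 and 16.6 CPM with YH29407 alone and 16.3, 13.4 and 20.9 CPM with the combination, against 12.4 and 14.9 CPM with aPD-1 and 9.23 and 9.28 CPM in the control group (log2 fold change 0.54, SE 0.22, unadjusted p = 0.0352, adjusted p = 0.748). Its 6 libraries with the drug overlapped the aPD-1 libraries but not the control libraries, and 4 of 10 leave-one-out fits kept p under 0.05. Kmo, which hydroxylates kynurenine, was highest in combination replicates 2 and 3 (4.69 and 7.25 CPM) and lay between 1.23 and 3.07 CPM in the other 4 tumors with YH29407, against 0.905 to 2.35 CPM without (log2 fold change 1.001, SE 0.57). Qprt, which carries the pathway on to NAD, ranged widely in both groups, from 0.843 to 8.35 CPM with YH29407 and from 0.938 to 6.34 CPM without. Got2, a mitochondrial aminotransferase that also acts on kynurenine, differed little, with 213 ± 57.1 CPM (SD, n = 6) with YH29407 and 228 ± 7.73 CPM (SD, n = 4) without. Il4i1, a tryptophan oxidase of myeloid cells, was at 2.80, 5.84 and 4.55 CPM in the combination tumors, against 0 and 0.521 CPM in the aPD-1 tumors, and at 0.346, 1.66 and 0.274 CPM with YH29407 alone, against 1.73 and 1.47 CPM in the control group. The remaining members, Kyat1, Kyat3, Haao, Kynu and Aadat, had log2 fold changes between -0.03 and 1.43 with unadjusted p-values of 0.184 and above.

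**Figure D2:**
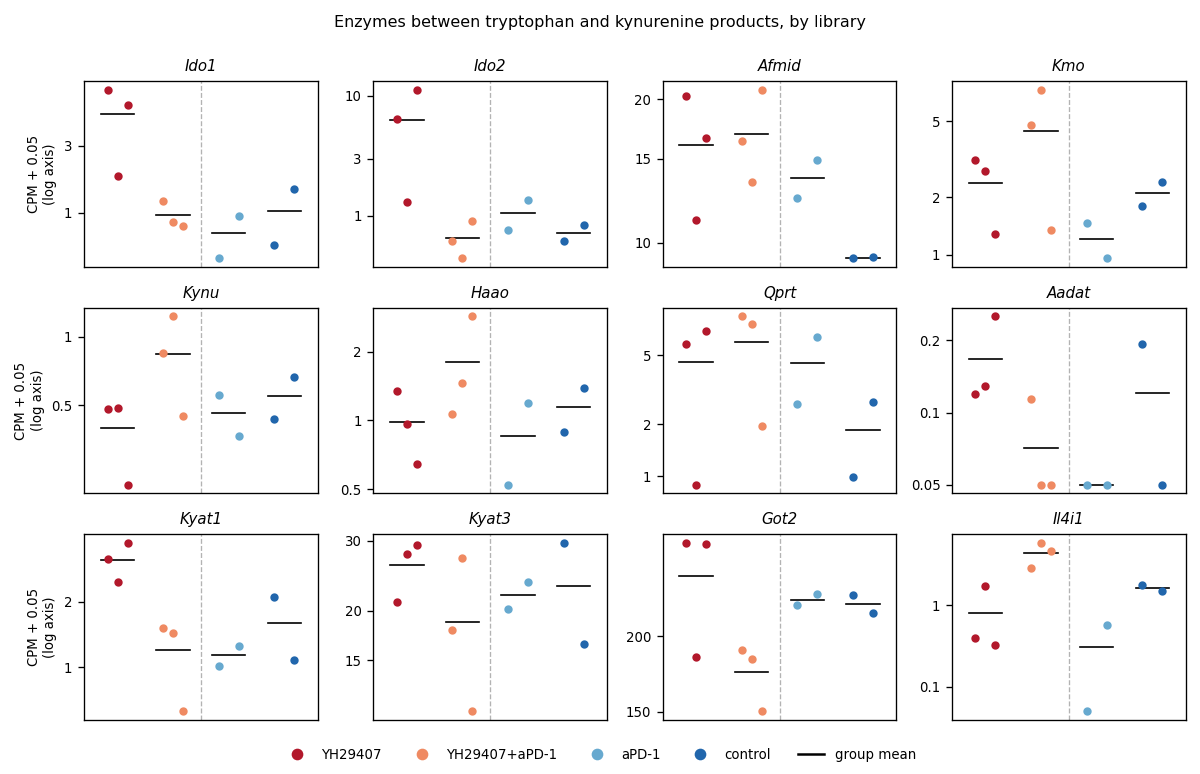
CPM + 0.05 on a log axis for the 12 tested enzymes of the kynurenine route, 1 point per library and a black line at the group mean, with YH29407 and YH29407+aPD-1 left of the dashed line and aPD-1 and control right of it. Ido1 and Ido2 are highest in the YH29407 group, where Ido1 reaches 7.49 CPM, and the combination group lies near the groups without the drug.

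Tryptophan carriers and the other users of tryptophan showed no member past an unadjusted p of 0.05 (12 tested, median log2 fold change 0.10). Slc7a5, the main tryptophan carrier of activated T cells and tumor cells, and its partner Slc3a2 had log2 fold changes of 0.16 (SE 0.26) and 0.14 (SE 0.24), and both were highest in combination replicate 4.

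The aryl hydrocarbon receptor list had 9 tested members, with a median log2 fold change of -0.20. The median was 0.05 between YH29407 and control, with 0 members lower, and -0.42 between the combination and aPD-1, with 3 lower. It lay between -0.26 and 0.002 over all leave-one-out fits, and was -0.02 without combination replicate 4. At an unadjusted p under 0.05 the main fit had 0 members higher and 1 lower. That member was Tiparp, a poly-ADP-ribose polymerase that the receptor induces and that feeds back on it. Tiparp had 72.1, 105 and 140 CPM with YH29407 alone and 54.8, 87.6 and 19.6 CPM with the combination, against 137 and 158 CPM with aPD-1 and 140 and 191 CPM in the control group. All tumors with YH29407 but YH29407 replicate 4 lay below all 4 without. The log2 fold change was -1.06 (SE 0.38, unadjusted p = 0.0195, adjusted p = 0.748), and without combination replicate 4, the lowest library, it was -0.82. Without aPD-1 replicate 4 it was -0.92, with an unadjusted p of 0.0539, and the other 9 leave-one-out fits kept p under 0.05. Ahr, the receptor, had 45.0 ± 23.9 CPM (SD, n = 6) with YH29407 and 53.6 ± 15.0 CPM (SD, n = 4) without. The classical target Cyp1b1 had a log2 fold change of -0.04 (SE 0.75), and Ahrr, the repressor of the receptor, one of -0.34 (SE 1.16). Tiparp and Cyp1b1 are shown here because both are known targets and their promoters can be read for the GCGTG core to which the receptor and Arnt bind. In the RefSeq promoters of GRCm38.p6, which run from 250 bases before to 50 bases after the start, this core was found on either strand in 5 of the 9 list genes matched and in 32.4% of all 32851 promoters, as a match of letters only. A list gene was counted if any of its promoters held the core, whereas the 32.4% is of single promoters, so these shares are not comparable. In the windows below, of 29 bases each, the core is in capitals, read here on the other strand, and begins 170 bases before the start of Tiparp (chr3:65528265-65528293, plus strand) and 76 bases before that of Cyp1b1 (chr17:79715121-79715149, minus strand).
Tiparp: ctccgtccggagCACGCgcacgggaggcg
Cyp1b1: cgtcccgcccctCACGCcccaccccctaa

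Among the GCN2 and ATF4 targets, 28 genes were tested, with a median log2 fold change of 0.03, 0 members higher and 1 lower. Vldlr, a lipoprotein receptor that ATF4 induces under stress, was that member. It had 68.0, 61.1 and 120 CPM with YH29407 alone and 55.1, 69.2 and 48.9 CPM with the combination, against 100 and 108 CPM with aPD-1 and 128 and 181 CPM in the control group (log2 fold change -0.87, SE 0.21, unadjusted p = 0.00221). The log2 fold change was nearly alike in both pairs of groups, -0.89 between YH29407 and control and -0.85 between the combination and aPD-1. The glutathione-degrading enzyme Chac1 and the pseudokinase Trib3, other ATF4 targets, had log2 fold changes of 0.94 (SE 0.48) and 0.65 (SE 0.37), with their highest values (27.3 and 72.3 CPM) in combination replicate 4.

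The genes with the smallest unadjusted p among those at least 2-fold apart with libraries that did not overlap were taken as the named genes of each direction, 12 of 116 higher and 12 of 30 lower genes. Their p, fold and separation were used to choose them, so these values are given as a description and support nothing. Ehf, an ETS transcription factor of epithelia, Epn3, an endocytic epsin of epithelia and wounded skin, and Slc5a11, a sodium-coupled inositol transporter, had 0 counts in all 4 tumors without YH29407, and so passed the filter only through the tumors with it. Epn3 had 0.774, 0.0922 and 1.95 CPM with YH29407 alone and 2.51, 0.253 and 0.863 CPM with the combination. Against the floor of 3 counts per library (0.0434 CPM), its mean was at least 24.7-fold higher, that of Ehf at least 13.4-fold higher and that of Slc5a11 at least 6.32-fold higher. Ehf was highest in combination replicates 2 and 3 (2.18 and 0.744 CPM), the tumors with keratinocyte genes, and at 0.0659 to 0.231 CPM in the other 4 tumors with the drug. Slc5a11 showed the narrowest range of the 3 genes, 0.173 to 0.450 CPM over the 6 tumors.

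Syt8 (chr7:142434850-142440396, mm10), a synaptotagmin of secretory epithelia, had 24.7, 9.97 and 8.51 CPM with YH29407 alone and 4.44, 4.56 and 6.56 CPM with the combination, against 0.614 and 1.06 CPM with aPD-1 and 3.74 and 3.25 CPM in the control group. Both groups with aPD-1 were lower than their partners without it, and YH29407 was higher in each pair, with log2 fold changes of 2.04 without and 2.63 with aPD-1. The main effect was 2.33 (SE 0.38, unadjusted p = 0.000127, adjusted p = 0.684). Tns4, an adhesion protein that tumors use to uncouple integrins from actin, had 5.75, 1.92 and 4.96 CPM with YH29407 alone and 3.41, 1.60 and 1.33 CPM with the combination, against 0.456 and 0.288 CPM with aPD-1 and 0.497 and 1.07 CPM in the control group (2.46, SE 0.46). Gldc, the glycine decarboxylase of mitochondria, was at 0.421 to 1.34 CPM with YH29407 and 0.156 to 0.242 CPM without (2.14, SE 0.42). Its log2 fold change was 2.11 without and 2.17 with aPD-1.

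Dmtn, an actin-bundling protein of the red cell membrane skeleton that other cells also use, had 4.11, 2.23 and 4.55 CPM with YH29407 alone, against 0.398 and 0.527 CPM in the control group, and 0.952, 0.715 and 1.55 CPM with the combination, against 0.378 and 0.507 CPM with aPD-1. It was higher in both pairs, by a log2 fold change of 2.97 and 1.27 (interaction, unadjusted p = 0.0306). Apobr, a receptor by which macrophages take up lipoproteins, had 15.1 to 36.2 CPM with YH29407 and 8.28 to 10.7 CPM without (1.34, SE 0.27). Mfng, a glycosyltransferase that modifies Notch receptors, had 5.46 ± 1.21 CPM (SD, n = 6) with YH29407 and 2.68 ± 0.591 CPM (SD, n = 4) without (1.02, SE 0.22). The phosphatase Ptp4a3 (PRL-3), which is known for its rise in metastases of colorectal cancer, had 17.05 ± 4.70 CPM (SD, n = 6) and 7.97 ± 1.71 CPM (SD, n = 4) in the same order (1.10, SE 0.24). The last of these genes, Hmcn2, an extracellular matrix protein, and Exoc3l, a relative of the exocyst subunits, had log2 fold changes of 1.38 (SE 0.28) and 1.28 (SE 0.28).

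**Figure D3:**
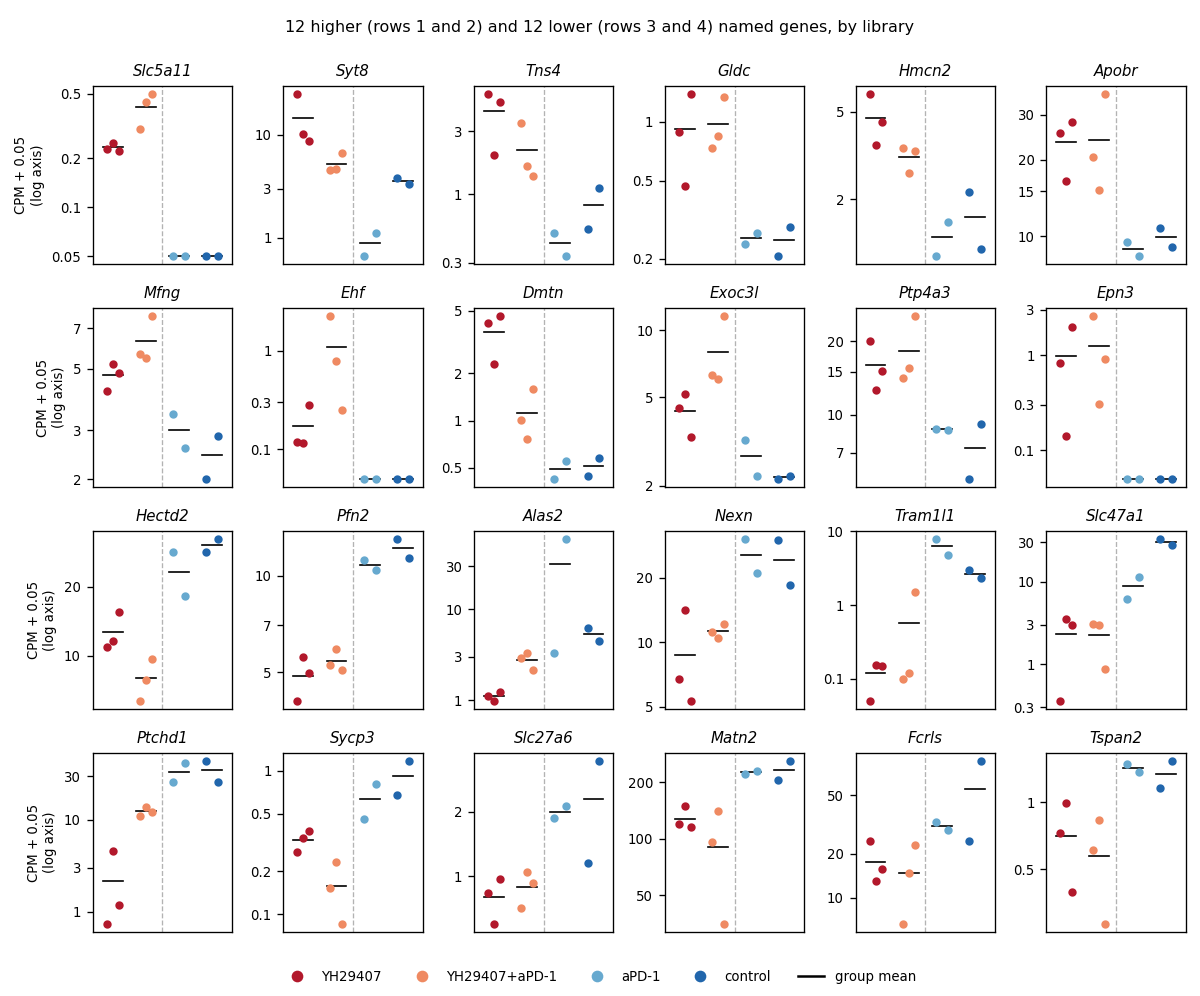
CPM + 0.05 on a log axis for the 12 higher genes (rows 1 and 2) and the 12 lower genes (rows 3 and 4), 1 point per library and a black line at the group mean, with YH29407 and YH29407+aPD-1 left of the dashed line and aPD-1 and control right of it. The libraries on either side do not overlap, which the choice of these genes fixed, and Slc5a11, Ehf and Epn3 lie at 0 CPM in all 4 tumors without YH29407.

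The 2 genes with the smallest p of all had lower values with YH29407. Hectd2 (chr19:36554126-36621135, mm10), an E3 ubiquitin ligase linked to lung inflammation, had 10.8, 11.6 and 15.4 CPM with YH29407 alone and 6.28, 7.76 and 9.67 CPM with the combination, against 28.3 and 18.2 CPM with aPD-1 and 28.4 and 32.4 CPM in the control group. The log2 fold change was -1.42 (SE 0.20, unadjusted p = 3.65e-05, adjusted p = 0.540), -1.27 between YH29407 and control and -1.56 between the combination and aPD-1. Pfn2 (chr3:57841895-57847757, mm10), a profilin that controls actin assembly, was the more even of the pair. It had 4.01, 5.54 and 4.92 CPM with YH29407 alone and 5.22, 5.85 and 5.02 CPM with the combination, against 11.2 and 10.4 CPM with aPD-1 and 13.0 and 11.3 CPM in the control group. Its mean was 5.09 ± 0.633 CPM (SD, n = 6) with YH29407 and 11.5 ± 1.10 CPM (SD, n = 4) without, and its log2 fold change of -1.17 (SE 0.17) stayed between -1.22 and -1.09 when any library was left out. Combination replicate 4, which stood apart in other measures, had 5.02 CPM of Pfn2, within the range of the other tumors with the drug.

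Slc47a1 (MATE1), which exports organic cations and drugs, had 0.304, 3.52 and 2.89 CPM with YH29407 alone and 2.97, 2.89 and 0.809 CPM with the combination, against 6.14 and 11.5 CPM with aPD-1 and 33.0 and 27.5 CPM in the control group (log2 fold change -2.92, SE 0.68). Ptchd1, a patched-related protein best known from the brain, had 0.691, 4.53 and 1.13 CPM with YH29407 alone, against 43.4 and 25.7 CPM in the control group, and 11.04, 13.7 and 12.3 CPM with the combination, against 25.9 and 41.4 CPM with aPD-1. Both pairs had lower values with the drug, with log2 fold changes of -4.03 and -1.45 (interaction, unadjusted p = 0.0292). Slc27a6, a fatty acid transporter, had a log2 fold change of -1.39 (SE 0.33). Tram1l1, a relative of the protein translocation factor Tram1, was at 0 to 0.105 CPM in 5 tumors with YH29407 and at 1.44 CPM in combination replicate 4, against 2.28 to 7.88 CPM without the drug.

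Matn2, a matrilin of the extracellular matrix, had 109 ± 41.0 CPM (SD, n = 6) with YH29407 and 228 ± 22.5 CPM (SD, n = 4) without (-1.09, SE 0.31). Nexn, an actin-binding protein of muscle and stroma, had 9.96 ± 3.35 CPM and 24.9 ± 6.06 CPM in the same order, and its log2 fold change was -1.33 (SE 0.29), or -0.87 with an unadjusted p of 0.0650 after correction for transcript GC and length, a setting chosen after the data were seen. Fcrls, an Fc receptor-like gene of macrophages and microglia, ranged from 6.59 to 24.2 CPM with YH29407 and from 24.4 to 85.5 CPM without (-1.36, SE 0.41). Tspan2, a tetraspanin, and Sycp3, a meiotic protein that tumors can express, had log2 fold changes of -1.18 (SE 0.39) and -2.02 (SE 0.48). Alas2, which starts heme synthesis in red cell precursors, had 1.05, 0.922 and 1.18 CPM with YH29407 alone and 2.85, 3.27 and 2.12 CPM with the combination, against 3.27 and 59.97 CPM with aPD-1 and 6.17 and 4.46 CPM in the control group. A single library, aPD-1 replicate 4, set the size of this difference: the log2 fold change was -2.96 (SE 0.63) over all libraries and -1.66 without it.

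The 2 pairs of groups share no library and were also compared apart. Between YH29407 and control, edgeR called 0 genes (0%), while at an unadjusted p under 0.05 there were 628 higher (2.92%) and 314 lower genes (1.46%), and the smallest adjusted p was 0.193. Between the combination and aPD-1 it called 0 genes (0%), with 1167 genes (5.42%) higher and 495 (2.3%) lower and a smallest adjusted p of 0.105. The difference between the pairs was tested as an interaction. It passed the adjusted threshold for 0 genes (0%), with a smallest adjusted p of 0.170, and 784 genes (3.64%) had a positive and 504 (2.34%) a negative interaction at an unadjusted p under 0.05. The medians over all genes were 0.01 without and 0.10 with aPD-1. Combination replicates 2, 3 and 4, with their skin genes or high mitochondrial share, all enter the pair with aPD-1.

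Most interferon genes had negative log2 fold changes, with 7 of 27 positive on the interferon gamma list and 7 of 26 on the type I list. The median log2 fold change of the interferon gamma list was -0.23 over 27 tested genes, where an unadjusted p under 0.05 was reached by 1 higher member (Ciita) and 0 lower ones, and the type I interferon list had a median of -0.23 over 26 genes with none past that threshold. Without combination replicate 4 these medians were -0.03 and -0.06, and without control replicate 3 they were -0.04 and 0.01. Without combination replicates 2 and 3 the first was -0.91, with 6 members lower. Cxcl10, a chemokine that draws T cells, had 67.8, 170 and 62.6 CPM with YH29407 alone and 159, 124 and 75.99 CPM with the combination, against 113 and 220 CPM with aPD-1 and 223 and 108 CPM in the control group (log2 fold change -0.60, SE 0.37). Cd274, which encodes PD-L1, overlapped between the groups (-0.42, SE 0.43).

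Of 15 tested genes of antigen presentation on MHC class II, 11 had a positive log2 fold change and the median was 0.37. An unadjusted p under 0.05 was reached by 3 higher members and 0 lower ones. The median was 0.05 between YH29407 and control and 0.51 between the combination and aPD-1. Without combination replicates 2 and 3 it was 0.12, with 1 member higher. Ciita, the master activator of these genes, had 17.8, 18.7 and 13.6 CPM with the combination, against 3.54 and 3.22 CPM with aPD-1, and 3.91, 3.13 and 3.06 CPM with YH29407 alone, against 1.08 and 4.49 CPM in the control group. The difference lay in the pair with aPD-1 (log2 fold change 2.304 with and 0.27 without aPD-1, interaction, unadjusted p = 0.0208, adjusted p = 0.799). H2-DMa, a chaperone that loads peptides, had 19.5 ± 3.37 CPM (SD, n = 6) with YH29407 and 14.5 ± 2.83 CPM (SD, n = 4) without (0.41, SE 0.17). H2-Oa, which restrains that chaperone, had a log2 fold change of 1.36 (SE 0.53) and was highest in YH29407 replicate 4 (4.42 CPM). The number of members past the threshold depended on single libraries: it was 0 without control replicate 3, the tumor with the lowest H2-Ab1 (7.60 CPM), 6 without control replicate 5 and 1 without combination replicate 3, aPD-1 replicate 3 or aPD-1 replicate 4. On MHC class I, 0 of 21 genes passed an unadjusted p of 0.05 and the median was 0.10.

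T cell genes were spread widely among the tumors with YH29407. The T cell identity list had 24 tested genes, 2 higher (Cd3d and Lat) and 0 lower, and a median of 0.61, which was -0.09 between YH29407 and control and 1.18 between the combination and aPD-1. Its summed level ranged from 47.0 to 194 CPM with YH29407 and from 74.97 to 109 CPM without. Cd3d, a subunit of the T cell receptor complex, had 1.06, 1.22 and 1.21 CPM with YH29407 alone and 2.28, 3.35 and 1.51 CPM with the combination, against 1.18 and 1.36 CPM with aPD-1 and 0.909 and 0.741 CPM in the control group (0.70, SE 0.28). In bulk tumors, fewer cells of a type and less RNA per cell cannot be told apart. Lat, an adaptor of the T cell receptor, followed the combination group, with 6.03, 4.56 and 6.78 CPM there, against 1.42 and 1.32 CPM with aPD-1 (interaction, unadjusted p = 0.0233, adjusted p = 0.799). Without combination replicates 2 and 3, the median of the list was -0.15 and 0 members were higher and 1 lower. Leaving out 1 library gave medians of 0.34 to 0.80, with 0 members higher without aPD-1 replicate 3 or 4 and 5 without YH29407 replicate 4. On the checkpoint list 2 of 19 genes were higher (Cd276 and Pdcd1), 0 lower and the median was 0.23. It was -0.10 between YH29407 and control and 0.83 between the combination and aPD-1. Without combination replicates 2 and 3 it was -0.33, with 0 higher and 1 lower. Pdcd1, the gene of PD-1, had 0.650, 2.42 and 0.635 CPM with YH29407 alone and 4.33, 5.32 and 1.47 CPM with the combination, against 1.35 and 1.49 CPM with aPD-1 and 0.852 and 0.413 CPM in the control group (1.17, SE 0.52, unadjusted p = 0.0488). Its groups overlapped.

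On the T cell receptor signaling list, 34 genes were tested, 2 higher and 3 lower, with a median of 0.10. The median was -0.24 between YH29407 and control, 0.53 between the combination and aPD-1 and -0.34 without combination replicates 2 and 3. The 3 lower members became 0 without aPD-1 replicate 3, without control replicate 5 or with GC and length offsets, and 1 without aPD-1 replicate 4. The adaptor Grap2 (GADS) was the higher member whose libraries did not overlap, at 2.95 to 13.3 CPM with YH29407 and 1.44 to 2.78 CPM without (1.38, SE 0.43). The lower members were the calcineurin subunits Ppp3ca (-0.62, SE 0.24) and Ppp3cb (-0.52, SE 0.20) and the exchange factor Sos1 (-0.36, SE 0.14), none of which is particular to T cells. Among genes of killer cells the median was -0.17 over 24 genes, with 0 higher and 1 lower. It was -0.69 between YH29407 and control and 0.44 between the combination and aPD-1. Gzmc, a granzyme, had 18.1, 41.7 and 55.8 CPM with YH29407 alone and 59.4, 86.8 and 31.5 CPM with the combination, against 68.9 and 146 CPM with aPD-1 and 90.8 and 102 CPM in the control group (-1.09, SE 0.37). Without combination replicates 2 and 3 the median of these genes was -0.96, with 7 members lower. Regulatory T cell genes had a median of 0.26 with 0 of 15 genes past an unadjusted p of 0.05 in either direction. Their median was -0.09 between YH29407 and control, 0.65 between the combination and aPD-1 and -0.47 without combination replicates 2 and 3. Of the 8 genes named for the study's pathways 5 had a positive log2 fold change, and their median was 0.29, or -0.09 between YH29407 and control and 0.80 between the combination and aPD-1. The paper's results for Nfatc2 and HLA-DQB1, for which H2-Ab1 stands here, set the combination against YH29407 alone, which is another comparison. The member past an unadjusted p of 0.05 was the Toll-like receptor adaptor Myd88 (57.2 ± 13.6 CPM with YH29407, SD, n = 6, and 42.1 ± 5.18 CPM without, SD, n = 4), while the kinases Lck and Zap70 had log2 fold changes of 0.60 (SE 0.53) and 0.42 (SE 0.46), H2-Ab1 and the peptide transporter Tap2 had 0.38 (SE 0.43) and 0.19 (SE 0.19), and B2m and Nfatc2 had -0.02 (SE 0.10) and -0.03 (SE 0.23). Icam1, a ligand of leukocyte integrins, had -0.05 (SE 0.41). Myd88 kept an unadjusted p under 0.05 in 4 of 10 leave-one-out fits. The paper's abstract also reports a rise of T cell and antigen presentation genes with YH29407, naming ZAP70, LCK, NFATC2, B2M and MYD88. The groups compared are not given there. Its discussion sets these pathways in the combination against control, aPD-1 alone and YH29407 alone. Toll-like receptor genes had 2 of 31 members higher, 0 lower and a median of -0.13. Their median was -0.35 between YH29407 and control, 0.11 between the combination and aPD-1 and -0.68 without combination replicates 2 and 3. The NF-kB list had 0 of 16 higher and 1 lower, Tnfaip3, an inhibitor of NF-kB that is induced by it (-0.91, SE 0.35).

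Dendritic cell genes had a median of 0.60, with 0 higher and 1 lower of 18, the transcription factor Tcf4 (-0.30). The median was -0.09 between YH29407 and control, with 0 members higher, and 1.40 between the combination and aPD-1, with 8 higher. It was 0.34 without aPD-1 replicate 4 and 0.08 without combination replicates 2 and 3. Flt3, their growth factor receptor, had 4.11, 5.18 and 3.04 CPM with the combination, against 0.740 and 0.850 CPM with aPD-1, and 1.56, 1.96 and 1.73 CPM with YH29407 alone, against 1.97 and 1.57 CPM in the control group (interaction, unadjusted p = 0.000717, adjusted p = 0.713). Macrophage genes had a median of -0.04 with 1 of 22 higher, the alternative activation marker Retnla, which was at 0 CPM in 2 of the 6 tumors with the drug and in 3 of the 4 without. The macrophage median was -0.22 between YH29407 and control, 0.07 between the combination and aPD-1 and -0.38 without combination replicates 2 and 3. Neutrophil genes had a median of 0.25 with none of 16 past the threshold, and their summed level was highest in combination replicate 2 (515 CPM) while their mean log2 level was highest in control replicate 3. The median was -1.30 between YH29407 and control and 2.76 between the combination and aPD-1. Without control replicate 3 it was 2.22, with 5 members higher, and without combination replicates 2 and 3 it was -1.33. B and plasma cell genes had a median of 0.21, with 1 of 15 higher and 0 lower. Their median was -0.285 between YH29407 and control and 0.95 between the combination and aPD-1.

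The median over 23 endothelial genes was 0.54, 16 of them had a positive value, and 3 were higher and 0 lower by the unadjusted p. Their summed level overlapped, at 427 to 672 CPM with YH29407 and 463 to 621 CPM without. Egfl7, a matrix protein that endothelial cells secrete, had 21.3, 19.5 and 18.9 CPM with YH29407 alone and 16.2, 17.8 and 22.4 CPM with the combination, against 15.2 and 9.31 CPM with aPD-1 and 10.3 and 7.20 CPM in the control group. Its libraries did not overlap (0.90, SE 0.22, unadjusted p = 0.00226, exact permutation p = 0.01). Egfl7 was picked from its list by p, and separated libraries put the permutation p at or near its smallest value, so neither p is support. Aplnr, the apelin receptor of sprouting vessels, had 33.8, 17.5 and 5.99 CPM with YH29407 alone and 18.6, 26.6 and 23.9 CPM with the combination, against 7.52 and 2.32 CPM with aPD-1 and 8.98 and 3.41 CPM in the control group (1.92, SE 0.54). Only YH29407 replicate 4 fell within the range of the tumors without the drug. Sox18, an endothelial transcription factor, followed (1.44, SE 0.47), and Kdr, the main VEGF receptor, had 0.68 (SE 0.31, unadjusted p = 0.0539). Leaving out 1 library at a time, 3 to 10 endothelial genes were higher, with 10 without YH29407 replicate 4, 8 without aPD-1 replicate 3 and 6 without combination replicate 4. The median was 0.75 between YH29407 and control and 0.13 between the combination and aPD-1. Icam2, an adhesion molecule of endothelium that leukocytes bind, was the only higher member of the leukocyte adhesion list (24 tested, 1 lower), at 2.61 to 6.46 CPM with YH29407 and 1.45 to 2.54 CPM without (0.99, SE 0.30). That list's median was 0.16, or -0.34 between YH29407 and control, 0.62 between the combination and aPD-1 and -0.35 without combination replicates 2 and 3.

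Fibroblast and matrix genes had a median of 0.00, with 0 of 24 higher and 2 lower. Dcn, the small proteoglycan decorin, had 71.6, 160 and 96.7 CPM with YH29407 alone and 326, 269 and 140 CPM with the combination, against 298 and 329 CPM with aPD-1 and 205 and 272 CPM in the control group (-0.75, SE 0.30). Mmp2, a matrix metalloproteinase, had a log2 fold change of -1.18 (SE 0.49). On the epithelial to mesenchymal transition list (24 tested, median 0.02, 1 higher and 2 lower), the growth factor gene Tgfb2 had 13.9 ± 11.2 CPM (SD, n = 6) with YH29407 and 26.5 ± 11.4 CPM (SD, n = 4) without, and the repressor Snai2 had 7.68 ± 6.44 CPM and 2.57 ± 0.469 CPM in the same order. Met, the receptor of hepatocyte growth factor, was lower in the pair with aPD-1 (log2 fold change -1.25 with and -0.17 without aPD-1, interaction, unadjusted p = 0.0290, adjusted p = 0.799).

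**Figure D4:**
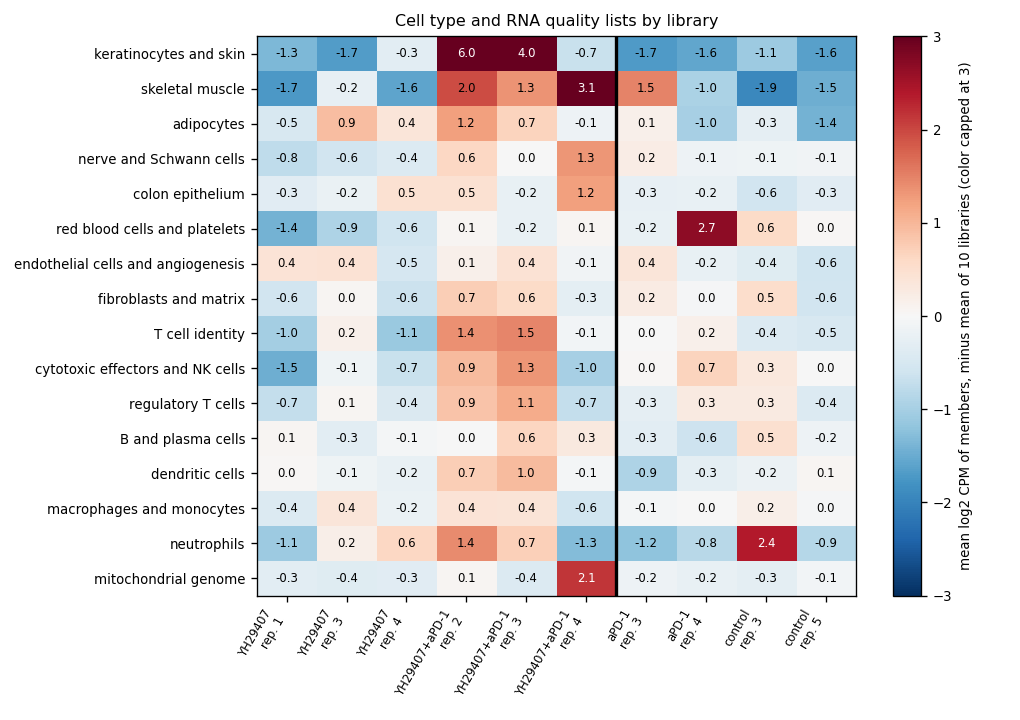
Mean log2 CPM of the members of 16 cell type and RNA quality lists in each library, minus the mean of the 10 libraries (color, capped at 3, value printed), with the 6 libraries with YH29407 left of the black line and the 4 without right of it. Combination replicates 2 and 3 stand out for keratinocyte genes, combination replicate 4 for mitochondrial and muscle genes, aPD-1 replicate 4 for red cell genes and control replicate 3 for neutrophil genes.

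Keratinocyte genes had a median of 3.49, with 8 of 19 higher and 0 lower. Only 12 members passed the filter without combination replicate 2 and 13 without combination replicate 3. Some of the 19 were thus tested only through the libraries where they are high, so the median and counts are a description and support nothing. The median was 0.00 between YH29407 and control, with 1 member higher, and 7.14 between the combination and aPD-1, with 15 higher. Their summed level was 12.8 to 1255 CPM with YH29407 and 5.36 to 40.3 CPM without, and it was highest in combination replicates 2 and 3. Krt5, the keratin of the basal layer, was at 82.2 and 30.2 CPM in these tumors and at no more than 0.0426 CPM elsewhere. A few epidermal genes were not limited to them. Trp63, the transcription factor of basal epidermis, had 0.608, 0.0527 and 6.46 CPM with YH29407 alone and 6.47, 2.53 and 0.539 CPM with the combination, against 0.0944 and 0 CPM with aPD-1 and 0.0994 and 0 CPM in the control group. The desmosomal cadherin Dsg3 was above every tumor without the drug in all 6 with it, if only at 0.0659 CPM in YH29407 replicate 3. Without combination replicates 2 and 3 the median was 1.06, with 3 members higher, and 3 were also higher when aPD-1 replicate 3 or 4 was left out. The part of skin in the tumors in the higher values of Ehf, Epn3 and Tns4 was not tested.

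Skeletal muscle genes had a median of 1.47, with 4 of 18 higher and 0 lower, and a summed level of 29.7 to 1440.5 CPM with YH29407 and 97.4 to 605 CPM without. The summed level was highest in the combination tumors and next highest in aPD-1 replicate 3. The fast myosin Myh4 had 95.6 CPM in combination replicate 4 and 24.9 CPM in aPD-1 replicate 3. Leaving out 1 library gave 2 to 7 higher members, with 2 without combination replicate 2 or 4, aPD-1 replicate 4 or control replicate 3 and 7 without aPD-1 replicate 3. Adipocyte genes had a median of 1.34 (8 tested, 2 higher, 0 lower). Plin4, a coat protein of lipid droplets, had 3.92 ± 3.03 CPM (SD, n = 6) with YH29407 and 1.32 ± 0.574 CPM (SD, n = 4) without, and Cidec, another one, had 0 counts in all 4 tumors without YH29407 and 0 to 0.216 CPM in those with it. Cidec, 1 of the 2 higher members, thus passed the filter only through the tumors with the drug. Colon epithelium genes had a median of 0.58 with 1 of 12 higher, Guca2a, the precursor of guanylin, at 0.105 to 0.414 CPM with YH29407 and 0 to 0.0713 CPM without. Guca2a also passed the filter only through the tumors with the drug. Schwann cell genes had a median of 0.55, and 0 of 9 passed an unadjusted p of 0.05.

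Red blood cell and platelet genes were the lowest list, with 7 of 10 members lower, 0 higher and a median of -1.67. Their summed level was 52.5 to 354 CPM with YH29407 and 147 to 1292 CPM without. Hbb-bs, an adult beta globin, had 11.2, 16.04 and 15.5 CPM with YH29407 alone and 35.8, 38.2 and 25.4 CPM with the combination, against 34.4 and 321 CPM with aPD-1 and 59.7 and 52.6 CPM in the control group (-2.21, SE 0.47, unadjusted p = 0.000977). The YH29407 tumors had the lowest values and aPD-1 replicate 4 by far the highest. Hbb-bt and Hba-a1 followed with log2 fold changes of -2.13 (SE 0.48) and -1.52 (SE 0.48). Each has a near-identical copy, so that the share of reads given to a single globin gene is uncertain. Without aPD-1 replicate 4 the list's median was -0.95, with 3 members lower.

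Cholesterol synthesis had 3 of 21 members lower, 0 higher and a median of -0.01. The lower members were the early enzyme Hmgcs1 (9.12 ± 1.95 CPM with YH29407, SD, n = 6, and 12.4 ± 1.35 CPM without, SD, n = 4), the epoxidase Sqle (log2 fold change -0.41, SE 0.16) and the demethylase Msmo1 (-0.45, SE 0.18). The chaperone list had 3 of 19 members lower, 0 higher and a median of -0.12. Hspa5 (BiP), the main chaperone of the endoplasmic reticulum, had 364, 335 and 347 CPM with YH29407 alone and 333, 349 and 286 CPM with the combination, against 413 and 402 CPM with aPD-1 and 394 and 401 CPM in the control group, without overlap but with a log2 fold change of only -0.26 (SE 0.10). The other members were the near-identical heat shock genes Hspa1a (-1.19, SE 0.50) and Hspa1b (-1.23, SE 0.48). Leaving out single libraries gave 0 to 4 lower genes of cholesterol synthesis and 0 to 3 of the chaperones. On the glycolysis and hypoxia list 1 of 25 genes was lower, the collagen prolyl hydroxylase P4ha1, with 138 ± 24.7 CPM (SD, n = 6) with YH29407 and 208 ± 54.3 CPM (SD, n = 4) without (-0.59, SE 0.16), and the median was -0.16.

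Cell cycle genes (27 tested, median -0.10), nuclear genes of oxidative phosphorylation (24, median -0.06), immediate early genes (21, median -0.04) and replication-dependent histones (16, median 0.23) had no member past an unadjusted p of 0.05. Ccna2, the cyclin of S phase, was below all 4 tumors without YH29407 in the 6 tumors with it, at 145 to 247 CPM and 250 to 266 CPM, with a log2 fold change of -0.22 (SE 0.16). Mitochondrial mRNAs had a median of 0.50 with no member past the threshold, and -0.05 without combination replicate 4. On the xenobiotic and oxidative stress list (22 tested, median 0.11) 1 gene was higher, the glutathione transferase Gsta1. It was at 3.58 and 17.5 CPM in YH29407 replicates 1 and 4 and at 0.168 to 2.302 CPM in the other tumors with the drug, against 0.206 to 1.47 CPM without (2.23, SE 0.99). Gsta1 shares long stretches with Gsta2, so that reads may be split between them.

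**Figure D5:**
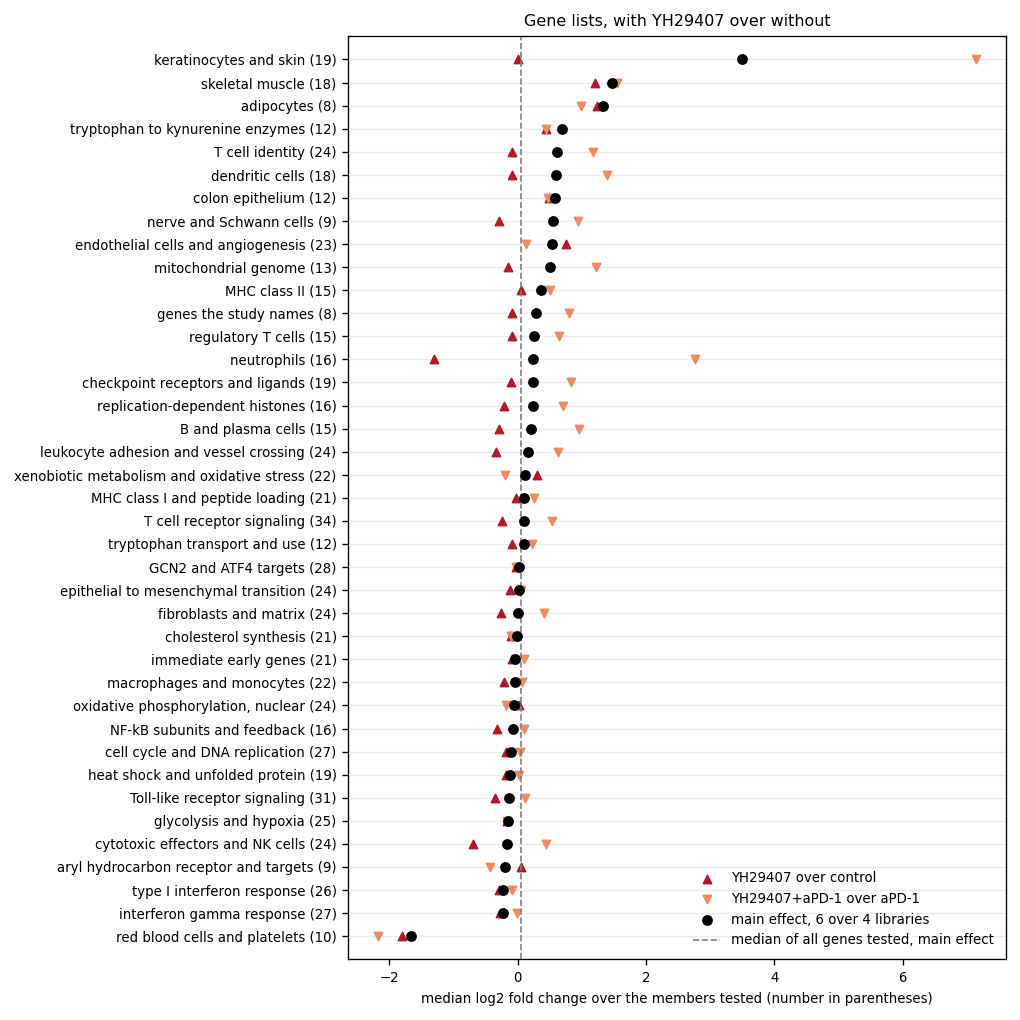
Median log2 fold change (horizontal axis) over the tested members of each of the 39 gene lists, whose number of members tested is in parentheses. Black points give the main effect of YH29407, red triangles YH29407 over control and orange triangles YH29407+aPD-1 over aPD-1, and the dashed line marks the median of all genes (0.06). Keratinocyte genes lie farthest to the right (3.49) and red blood cell genes farthest to the left (-1.67).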

How the data were processed

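RNA of 10 formalin-fixed tumors was sequenced as paired-end reads of 100 bp. Per the labels and the study's methods, the authors used HISAT2 to align reads to mm10 and StringTie to quantify genes. The labels name 2 library kits, and strand use is not given in the sources used here. The deposited table holds whole-number read counts, FPKM and TPM that the authors computed per gene and library. Counts were used as deposited, FPKM served in 2 alternatives, and TPM were not used. Of 45777 genes, 12616 had no counts.

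Counts were scaled by TMM, filtered by group (filterByExpr) and fitted with edgeR's robust quasi-likelihood model with terms for aPD-1 and YH29407, with 7 residual degrees of freedom (common dispersion 0.273). Pairs of groups and their interaction came from a fit with 1 term per group. The Benjamini-Hochberg adjustment ran over all 21523 genes tested, with a threshold of 0.05. Unless an adjusted p is named, p-values of single genes are unadjusted edgeR values. The standard error is the log2 fold change divided by the root of F. Single values were also compared in log2(CPM + 0.5) with 2-sided exact permutation tests within strata of aPD-1 (100 arrangements, smallest p 0.01). Floors and counts cover counting error only.

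Named genes are the 12 higher and 12 lower genes with the smallest p, a change of at least 1 on the log2 scale and libraries that do not overlap, leaving out unnamed gene models (Gm364, Gm42081 and LOC115488302 were passed over), all kynurenine enzymes, the 8 genes of the study and up to 6 members of each other list by p. Krt14, Cdx1, Cdx2, Slc3a2, Cyp1b1, Ahrr and Myh4 lie outside that rule and were chosen after their values were seen. The 39 lists hold 756 genes, 755 of them in the table. Members and lists were chosen with earlier results of these data known. Lists are described by counts and medians with no set test, since their genes are not independent. Gene names, positions and promoters are those of RefSeq on GRCm38.p6, the assembly of mm10. GC content came from the longest GENCODE transcript. Alternatives were RLE and upper quartile factors, no filter, the replicate block, no aPD-1 covariate, the average of the pairs, no robust prior, DESeq2, limma-voom with and without quality weights, limma on FPKM with a pseudocount of 1 or 0.1 before the log2, left-out libraries and, chosen after the data were seen, GC and length offsets. The procedure was tested on simulated counts. R 4.3.3 was used with DESeq2 1.42.0, limma 3.58.1 and edgeR 4.0.16.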

Additional observations from a re-analysis of the deposited data

Results flagged for a closer look

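For 36 genes (the 24 named genes and the 12 tested enzymes of the kynurenine route) and 5 library measures, the 6 tumors with YH29407 and the 4 without were each searched for a single value far from the others by Dixon's ratio (on log2(CPM + 0.5) for genes), which chance exceeds in about 1 of 20 groups. Of 82 groups, 7 held such a value. Combination replicate 4 had a mitochondrial share of 2.28%, against 0.413% to 0.560% in the other 5 tumors with YH29407, and a pseudogene share of 7.09%, against 3.04% to 3.47%. It also had 1.44 CPM of Tram1l1, where the other 5 had 0 to 0.105 CPM, and 35.3 CPM of Matn2, where they had 96.4 to 150 CPM. Without YH29407, aPD-1 replicate 3 had 3.16 CPM of Exoc3l, against 2.103 to 2.17 CPM in the other 3 tumors. Control replicate 3 had 5.43 CPM of Ptp4a3, against 8.63 to 9.12 CPM, and 0.142 CPM of Aadat, against 0 CPM.

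The effect of YH29407 differed between the tumors with and without aPD-1 at an unadjusted interaction p under 0.05 in 4 of these 36 genes, none of which passed adjustment over all genes. They were Ido2 (unadjusted p = 0.00751), Il4i1 (unadjusted p = 0.0201), Ptchd1 (unadjusted p = 0.0292) and Dmtn (unadjusted p = 0.0306). Ido2 and Il4i1 had log2 fold changes of opposite sign in the 2 pairs, 3.21 and -1.07 between YH29407 and control, against -0.74 and 4.05 between the combination and aPD-1.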

How the results depend on the processing

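edgeR, limma-voom (with and without sample quality weights) and limma with a pseudocount of 1 or 0.1 FPKM called 0 genes, and so did each fit without 1 library. DESeq2 called 133 higher and 31 lower genes, all of which also had an unadjusted edgeR p under 0.05. The counts at an unadjusted p under 0.05, 973 higher and 373 lower, moved by more than 1.5 times to 1495 and 583 with DESeq2, to 1987 and 1315 with quality weights (combination replicate 4 weighed 0.0984) and to 1956 and 1595 without combination replicates 2 and 3. Leaving out 1 library gave 646 (without aPD-1 replicate 4) to 1267 higher genes (without combination replicate 3) and 143 to 857 lower genes (the same libraries). Lower counts moved by more than 1.5 times without every library but YH29407 replicates 3 and 4 and control replicate 3. The replicate block gave 310 higher and 70 lower genes. Deviations from the group mean of 9 same-numbered pairs correlated at -0.00271 to 0.209, with 2 pairs over 0.1. Both of these (0.209 and 0.172) joined a combination and an aPD-1 library. In groups of 2 libraries the deviations mirror each other, so these values cannot settle whether the numbers pair the samples. Upper quartile factors shifted the median of all genes to 0.15 and no filter to 0.19.

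The 24 named genes were chosen by their p and separation in these libraries, which largely fixed that 567 of their values under alternatives kept the direction and an unadjusted p under 0.05. The 8 exceptions were Sycp3, Slc27a6, Matn2 and Tspan2 under the block, Ehf on both FPKM scales, Alas2 with quality weights and Nexn with GC and length offsets. Only Tcf4, a member of the dendritic cell list, changed sign where a value past that threshold was involved, to 0.072 with those offsets against -0.30. Genes higher at p under 0.05 had a median GC content of 52.9%, lower ones 46.2% and all genes 49.3% (91.7% or more matched). The cause of these shifts was not tested.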

Other observations

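Of the 133 higher genes that DESeq2 called, 66 had libraries that did not overlap and 4 were on the keratinocyte list. That list holds 20 genes, and the keratin Krt6a and the epithelial genes Ehf and Epn3, also called, are not on it. Of the 31 lower genes 22 did not overlap. Over all genes tested, 0.985% were separated on the higher side and 1.32% on the lower side. All 12 named higher genes and 8 of the 12 named lower genes were among the genes that DESeq2 called. The named genes were chosen by p, fold and separation in these same libraries, so this overlap supports nothing. The genes that follow were chosen after their values were seen. Sprr1b, a protein of the cornified envelope of skin, had the smallest adjusted p by DESeq2 (1.39e-11) although it had counts in only 3 tumors, combination replicates 2 (43.8 CPM) and 3 (13.5 CPM) and YH29407 replicate 4 (0.231 CPM), and its exact permutation p was 0.28. Further genes past DESeq2's threshold included Pdlim2, an adaptor that ends NF-kB signaling (log2 fold change 0.9955, adjusted p = 9.18e-06), Sh2d3c, an adaptor of leukocyte adhesion and migration (0.77, adjusted p = 4.43e-05), and the growth factor receptor Egfr (2.15, adjusted p = 0.00214). None of them passed the adjusted threshold with edgeR.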
